A study of Mus musculus with 28 samples.

Results

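Kidneys of mice with 1 of 3 forms of aquaporin-3 (Aqp3) were examined for 9 genes of glucose handling and of ammonia production, out of 56748 genes in the count table. The genes were chosen by name as members of these pathways: Pck1, G6pc and Fbp1 (gluconeogenesis), Glud1 and Slc38a3 (ammoniagenesis), and Slc5a1, Slc5a2, Slc2a1 and Slc2a2 (glucose transport). There were 5 libraries of polyadenylated RNA from male Q kidneys, 5 from male R, 5 from male WT, 5 from female Q, 3 from female R and 5 from female WT, 28 in all. Q is the acetylation mimetic of Aqp3, R the deacetylation mimetic and WT the wild-type form. In every group the mice were untreated and on standard food and light, and were killed 2 to 5 h after lights on (zeitgeber time); the kidneys were stripped of the capsule and frozen. Age, strain, the way the Aqp3 alleles were made and which libraries came from separate animals are not given in the sources used here, so the p-values measure the spread between labelled libraries, which may in part be technical.

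The proximal tubule takes filtered glucose back from the urine and also makes glucose. Sodium-coupled carriers of the SLC5A family bring glucose in from the lumen, Slc5a2 (SGLT2) in the early part of the tubule and Slc5a1 (SGLT1) further along, and the facilitative carriers Slc2a2 (GLUT2) and Slc2a1 (GLUT1) let it out towards the blood. Glutamine, taken up through Slc38a3 (SNAT3), is deaminated to glutamate and, by glutamate dehydrogenase (Glud1), to 2-oxoglutarate, which frees ammonium for acid excretion, and the carbon left over feeds gluconeogenesis through Pck1, Fbp1 and G6pc.

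Total counts per library ran from 14825417 to 21403804, and all 9 genes were among the 17573 genes tested, with a lowest count in any library of 683 (Slc38a3). Levels are given in CPM, counts scaled to a common library size (edgeR's cpm), and as mean ± SD. The tissue label fits the markers: the proximal tubule gene Slc34a1, a phosphate carrier, averaged 4245 to 6516 CPM by group, and Aqp3 itself 111 to 124 CPM. In 2 libraries the share of counts from mitochondrial genes was low, at 7.74% in male Q 4 and 3.94% in female Q 5, against 9.56% to 12.1% in the other 26. The library labelled female WT 2 goes against its label in Xist, the RNA of the inactive X chromosome, at 0.515 CPM, where the other 12 female libraries had 214 to 435 CPM. Its sum over 4 Y-linked genes was 0.468 CPM, against 121 to 164 CPM in the male libraries. For the members called between the sexes, the mean contrast is given with and without these libraries. Other results include them unless a sentence says otherwise.

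Per kilobase of exon, the only scale on which the genes can be compared with each other, Pck1 stood highest at a mean of 824 CPM per kb and Fbp1 came next at 720. G6pc averaged 260, Slc5a2 193 and Glud1 159 CPM per kb. The remaining carriers were lower, Slc2a2 at 24.3, Slc5a1 at 19.8, Slc2a1 at 19.6 and Slc38a3 at 15.5 CPM per kb. The genes also differed in how much they varied between libraries of the same group. The pooled SD within groups was 0.43 for Pck1, 0.41 for G6pc and 0.33 for Slc38a3 on the log2 CPM scale, and ran from 0.13 (Fbp1) to 0.20 (Slc2a2) for the other 6. The plot of levels in each library shows both the male and female levels and this spread.

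**Figure D1:**
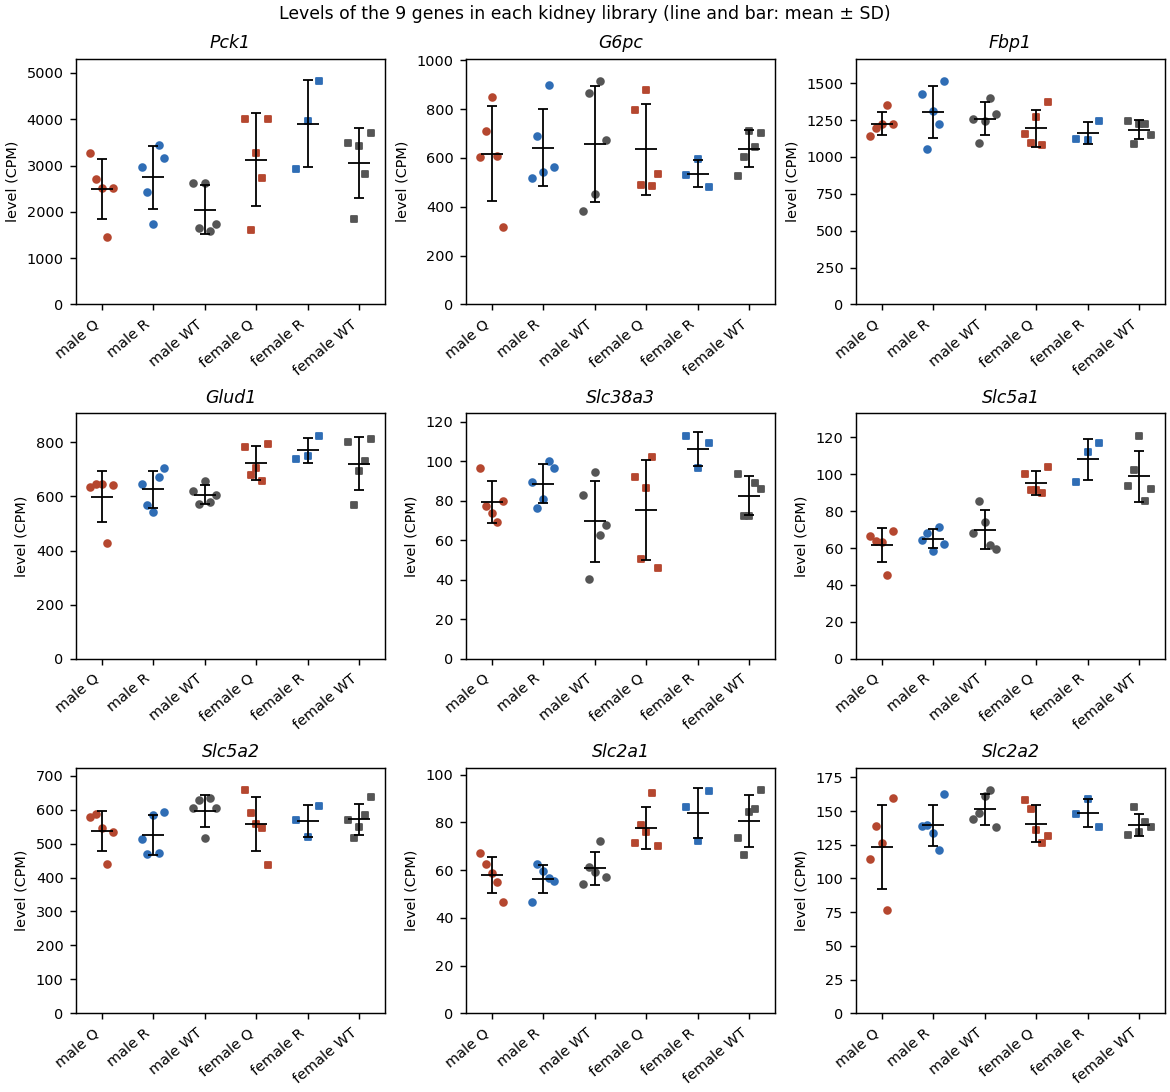
Level in CPM (vertical axes, starting at 0) of each of the 9 genes in the 28 libraries; circles are male and squares female libraries, coloured by Aqp3 form, with the mean as a line and the SD as a bar. The 15 male libraries of Slc5a1 lie between 45.6 and 85.5 CPM, all under the 13 female libraries at 85.7 to 121 CPM, while Slc5a2 spans 441 to 633 CPM in males and 438 to 658 CPM in females.

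Kidneys of males and females differed in 4 of the 9 genes, and all 4 were lower in males. Slc5a1, Slc2a1, Pck1 and Glud1 had log2 fold changes of male over female between -0.62 and -0.27 in the mean of the 3 genotypes. G6pc, Fbp1, Slc38a3, Slc5a2 and Slc2a2 did not pass the test. A gene was called at an adjusted p under 0.05 (edgeR quasi-likelihood test, Benjamini-Hochberg over all tested genes). Of all tested genes 21.3% were called lower in males, 18.9% were called higher and 40.2% in either direction, so 4 of 9 in either direction lies near the background. Whether the shared direction of the 4 calls exceeds chance was not tested. Pck1 and Glud1, which are among them, varied together within groups. The sexes were compared within each Aqp3 form and as the mean of the 3 forms, since the labels give both sexes for each form. In bulk tissue, fewer cells of a type and less RNA per cell cannot be told apart.

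The regions upstream of these 4 genes are shown because they are the members that passed the test between the sexes, and because Pck1 and Glud1 also moved together from library to library. RefSeq promoters (build GRCm38.p6) were held for 7 of the 9 genes, among them G6pc, Fbp1 and Slc2a2; Slc38a3 and Slc5a2 had no entry. Each sequence gives the 250 bases before the annotated start, 5′ to 3′ on the strand of the gene, and all 4 lie on the plus strand, at chr2:173152823-173153072 (Pck1), chr14:34310477-34310726 (Glud1), chr5:33103969-33104218 (Slc5a1) and chr4:119108495-119108744 (Slc2a1). Capitals mark matches to the searched motifs, on either strand.
Pck1: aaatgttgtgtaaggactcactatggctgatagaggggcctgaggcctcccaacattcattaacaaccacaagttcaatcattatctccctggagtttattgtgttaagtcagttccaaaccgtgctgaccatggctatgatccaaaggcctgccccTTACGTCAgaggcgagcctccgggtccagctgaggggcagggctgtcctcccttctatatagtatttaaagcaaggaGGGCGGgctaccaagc
Glud1: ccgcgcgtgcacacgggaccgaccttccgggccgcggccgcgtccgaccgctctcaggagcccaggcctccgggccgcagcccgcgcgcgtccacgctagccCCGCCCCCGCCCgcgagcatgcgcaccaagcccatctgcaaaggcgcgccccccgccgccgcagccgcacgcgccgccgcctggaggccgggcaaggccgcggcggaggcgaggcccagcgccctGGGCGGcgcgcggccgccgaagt
Slc5a1: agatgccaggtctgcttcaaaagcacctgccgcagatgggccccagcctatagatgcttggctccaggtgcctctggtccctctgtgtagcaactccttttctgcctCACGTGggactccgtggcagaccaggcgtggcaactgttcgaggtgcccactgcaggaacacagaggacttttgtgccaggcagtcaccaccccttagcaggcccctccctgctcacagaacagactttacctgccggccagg
Slc2a1: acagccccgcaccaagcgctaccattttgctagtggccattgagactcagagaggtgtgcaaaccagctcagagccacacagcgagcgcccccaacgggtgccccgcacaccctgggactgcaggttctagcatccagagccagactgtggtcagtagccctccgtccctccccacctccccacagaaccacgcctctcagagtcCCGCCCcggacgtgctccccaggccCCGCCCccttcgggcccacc

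The motifs searched were the cyclic AMP response element TGACGTCA and its variant TTACGTCA, the GC box GGGCGG, the E-box CACGTG and the TATA box TATAAA. The Pck1 region held TTACGTCA at positions -93 to -86 from the start, letters found in 0.447% of 32851 promoters of the same table searched over the same length, and a GC box at -16 to -11. In the Glud1 region 3 GC boxes began at -148, -142 and -23, and its GC content was 82.0%, against a median of 52.4% over all promoters. The Slc5a1 region held an E-box at -143 to -138, which 6.02% of promoters have. Slc2a1 had GC boxes beginning at -45 and -20, a motif present in 32.7% of promoters. TATAAA, in 12.4% of promoters, and TGACGTCA, in 1.55%, were in none of the 4 printed regions. No motif was shared by all 4. These are matches of letters and describe the windows only.

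Pck1, the cytosolic phosphoenolpyruvate carboxykinase that commits carbon to gluconeogenesis, was at 3261, 2707, 2505, 1466 and 2511 CPM in male Q kidneys, against 4002, 1609, 3277, 2730 and 4008 CPM in female Q. Male R kidneys had 2974, 2432, 1733, 3441 and 3172 CPM, against 2932, 3973 and 4817 CPM in female R. Male WT kidneys had 2633, 1660, 2613, 1595 and 1744 CPM, against 3482, 1845, 3423, 2821 and 3710 CPM in female WT. The sexes overlapped: 6 of 13 female libraries lay above all males, and 2 of 15 male libraries below all females. In the mean of the genotypes Pck1 was lower in males, at -0.47 in log2 (SE 0.145, edgeR adjusted p = 0.0105). Without male Q 4 and female Q 5 the value was -0.38 (edgeR adjusted p = 0.0459), and without female WT 2 it was -0.51 (edgeR adjusted p = 0.00448).

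Glud1, which releases the second ammonium of glutamine from glutamate, showed the narrower spread and the smaller change. Male Q kidneys had 634, 647, 645, 430 and 642 CPM, against 784, 679, 706, 656 and 793 CPM in female Q, with no overlap. Male R kidneys had 646, 570, 543, 671 and 703 CPM, against 739, 748 and 824 CPM in female R, with no overlap. All male Q libraries lay below all female Q libraries in 6.37% of tested genes, and all male R below all female R in 12.1%. Male WT kidneys had 621, 571, 656, 579 and 604 CPM, against 803, 567, 695, 731 and 812 CPM in female WT, where female WT 2 lay below every male WT library and the other 4 above them. Glud1 was lower in males, at -0.27 in log2 (SE 0.0666, edgeR adjusted p = 0.00139). Without male Q 4 and female Q 5 this was -0.22 (edgeR adjusted p = 0.000784), and without female WT 2 it was -0.29 (edgeR adjusted p = 0.000505).

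The remaining enzymes did not pass. Fbp1, the fructose bisphosphatase of gluconeogenesis, averaged 1263 ± 124 CPM in 15 male and 1183 ± 87.9 CPM in 13 female libraries, a log2 fold change of 0.10 (95% interval -0.02 to 0.22). G6pc, whose product releases free glucose from glucose 6-phosphate, averaged 639 ± 186 CPM in males and 613 ± 126 CPM in females, a log2 fold change of 0.09 (95% interval -0.21 to 0.38). Slc38a3 averaged 79.2 ± 15.7 CPM in males and 85.3 ± 20.4 CPM in females, a log2 fold change of -0.14 (95% interval -0.38 to 0.09). The interval of Slc38a3 includes a fall of the size seen in Glud1, and that of G6pc does not.

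Slc5a1, the sodium and glucose carrier of the later proximal tubule, separated the sexes completely. Male Q kidneys had 66.4, 64.0, 63.2, 45.6 and 69.1 CPM, against 99.9, 91.3, 91.2, 89.6 and 104 CPM in female Q. Male R kidneys had 64.5, 68.3, 58.3, 71.6 and 62.1 CPM, against 95.5, 112 and 117 CPM in female R. Male WT kidneys had 68.4, 85.5, 74.3, 61.8 and 59.5 CPM, against 93.4, 102, 121, 85.7 and 91.9 CPM in female WT. All 15 male libraries lay below all 13 female libraries, as they did in 1.94% of tested genes, and within WT alone the males lay below the females in 7.27% of tested genes. In 3.2% of tested genes all males lay above all females, and 5.14% did not overlap in one direction or the other. The closest pair, male WT 2 and female WT 4, differed by less than 1 CPM. Slc5a1 was lower in males, at -0.62 (SE 0.0664, edgeR adjusted p = 5.87e-09) in the mean of the genotypes. Without male Q 4 and female Q 5 the value was -0.57 (edgeR adjusted p = 4.86e-10), and without female WT 2 it was -0.61 (edgeR adjusted p = 2.47e-08).

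Slc5a1 passed in each Aqp3 form. The log2 fold change of male over female was -0.63 in Q (SE 0.110, edgeR adjusted p = 7.03e-05), -0.73 in R (SE 0.125, edgeR adjusted p = 7.66e-05) and -0.50 in WT (SE 0.110, edgeR adjusted p = 0.00142). Slc2a1 was the other gene that passed in each form, at -0.42 in Q (SE 0.110, edgeR adjusted p = 0.00506), -0.58 in R (SE 0.125, edgeR adjusted p = 0.00147) and -0.41 in WT (SE 0.110, edgeR adjusted p = 0.00876). Among all tested genes 23.1% were called in Q, 14.1% in R and 16.5% in WT, with 11.2% lower and 11.9% higher in Q males, 7.01% lower and 7.07% higher in R males, and 8.31% lower and 8.22% higher in WT males. Pck1 and Glud1 did not pass within any single form, although their direction was the same in all 3. Without female WT 2, Pck1 passed in WT at -0.70 (edgeR adjusted p = 0.0477), and without male Q 4 and female Q 5, Glud1 passed in R at -0.28 (edgeR adjusted p = 0.0261) and in WT at -0.24 (edgeR adjusted p = 0.0301). In Q, leaving out the same 2 libraries gave -0.08 for Pck1, against -0.33 with them, and -0.13 for Glud1, against -0.27.

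Slc2a1, the facilitative glucose carrier found in many cell types, had 67.0, 62.4, 58.7, 55.2 and 46.8 CPM in male Q kidneys, against 71.3, 79.1, 76.0, 92.2 and 70.0 CPM in female Q. Male R kidneys had 46.8, 62.6, 59.4, 56.9 and 55.5 CPM, against 86.5, 72.3 and 93.2 CPM in female R. Male WT kidneys had 54.0, 61.5, 59.2, 72.3 and 57.0 CPM, against 73.6, 66.1, 84.4, 85.8 and 93.5 CPM in female WT. Within Q and R the groups did not overlap, as in 6.37% of tested genes in Q and 12.1% in R with males lower, and over all libraries 13 of 15 males lay below every female. Slc2a1 was lower in males, at -0.47 (SE 0.0666, edgeR adjusted p = 1.06e-06) in the mean of the genotypes, without male Q 4 and female Q 5 at -0.47 (edgeR adjusted p = 4.45e-07) and without female WT 2 at -0.48 (edgeR adjusted p = 5.69e-07). An annotated gene on the opposite strand, Gm12868, overlaps Slc2a1, and BC017158 overlaps Slc5a2, and no strand option is named for the counting.

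The other transporters gave values close to 0. Slc5a2, the main carrier of the early proximal tubule and the target of gliflozin drugs, averaged 554 ± 60.5 CPM in males and 565 ± 56.5 CPM in females, a log2 fold change of -0.03 (95% interval -0.16 to 0.10). Slc2a2, which passes glucose out across the basolateral membrane, averaged 138 ± 22.9 CPM in males and 142 ± 10.7 CPM in females, a log2 fold change of -0.06 (95% interval -0.21 to 0.10). The intervals of both exclude a change of the size of Slc5a1. In order of mean level by group, Slc5a1 ran female R (108 ± 11.1 CPM), female WT (98.8 ± 13.6), female Q (95.2 ± 6.38), male WT (69.9 ± 10.5), male R (65.0 ± 5.20) and male Q (61.6 ± 9.25). Only the step between female Q and male WT was larger than the SD of both groups.

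**Figure D2:**
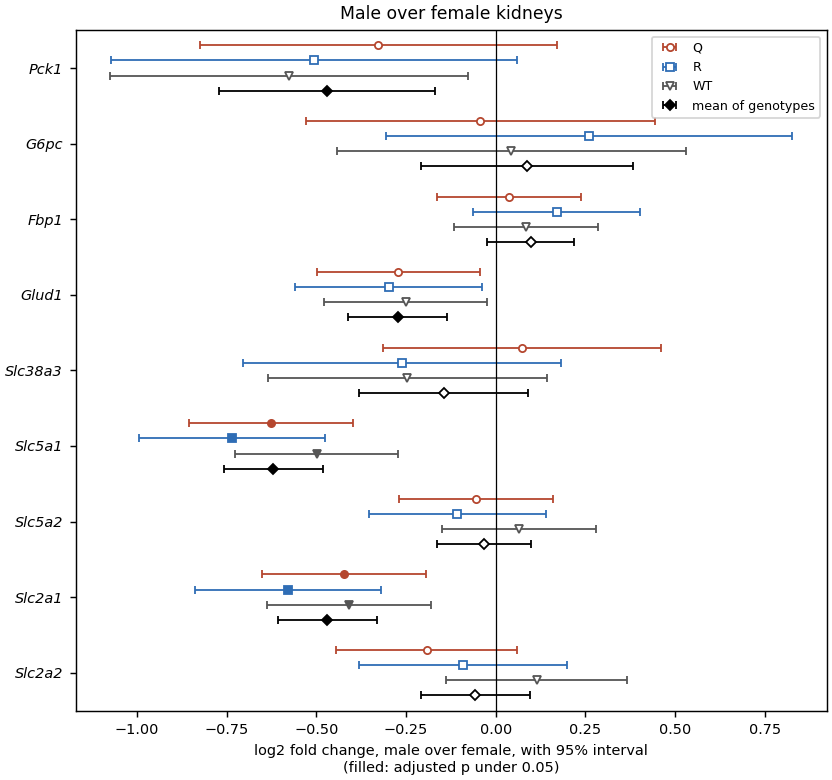
Log2 fold change of male over female kidneys (horizontal axis) for each of the 9 genes, within Q, R and WT and as their mean; bars are 95% intervals and filled symbols have an edgeR adjusted p under 0.05. Slc5a1 (-0.62 in the mean) and Slc2a1 (-0.47) are filled in every row, Pck1 and Glud1 in the mean only.

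The ratio of 2 genes within a library does not depend on how libraries are scaled. Slc5a2 counts per Slc5a1 count ran from 7.73 to 9.67 in male Q kidneys and from 4.21 to 6.58 in female Q. In R kidneys they ran from 6.60 to 10.01 in males and from 4.63 to 5.95 in females, and in WT from 6.93 to 10.2 in males and from 4.54 to 6.92 in females. The sexes did not overlap within any form. Nor did they in Slc5a1 alone, so the ratio is not a separate result. No share over other pairs of genes was calculated. The difference in mean log2 ratio was 0.59 in Q (exact permutation p = 0.00794, n = 5 and 5), 0.62 in R (exact permutation p = 0.0357, n = 5 and 3) and 0.56 in WT (exact permutation p = 0.00794, n = 5 and 5). These tests are two-sided, and each of the 3 values is the smallest p its design allows. Adjusted over the 14 ratio comparisons, none passed 0.05, at 0.0556 in Q, 0.125 in R and 0.0556 in WT by the same exact permutation test. Since each p was already the smallest possible, this outcome was set by the number of comparisons and the p-values of the others. It does not speak to the size of these 3 differences. Slc2a2 counts per Slc2a1 count gave a difference of 0.20 in Q, 0.48 in R and 0.52 in WT, with adjusted exact permutation p-values of 0.812, 0.200 and 0.0741. In Q, leaving out 1 library moved this difference between 0.02, without male Q 5, and 0.34, without male Q 4. Male Q against male WT gave -0.27 in the same ratio, with -0.45 without male Q 5 (adjusted exact permutation p = 0.0556) and -0.12 without male Q 4. None of the 8 genotype comparisons of either ratio passed, and their adjusted exact permutation p-values lay at or above 0.648.

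**Figure D3:**
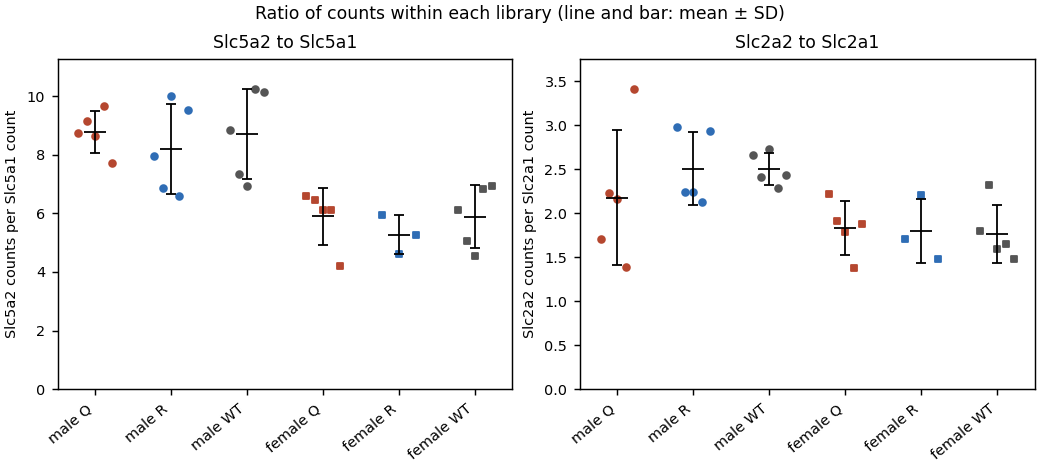
Counts of Slc5a2 per count of Slc5a1 (left) and of Slc2a2 per count of Slc2a1 (right) in each library, by group, with mean and SD; axes start at 0. The Slc5a2 to Slc5a1 ratio lies above 6.5 in all male libraries; the highest female value is 6.92, in female WT, so the sexes overlap slightly when all forms are put together.

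No difference between the forms of Aqp3 passed the test in any of the 9 genes. Of the 9 contrasts, Q against WT, R against WT and Q against R in males, in females and in both sexes together, each had 0 of 9 members and 0% of tested genes called by edgeR. At an unadjusted p under 0.05, 235 to 897 of the 17573 tested genes were found per contrast. DESeq2 called 3 genes in Q against WT in males, 1 in Q against WT in females, 1 in both sexes together and 1 in Q against R in males, none of them a member, and 0 in the other 5 contrasts. In both interactions of sex with genotype 0 members and 0% of tested genes were called by edgeR and 0 by DESeq2, with 547 (Q) and 495 (R) genes at an unadjusted p under 0.05 and no member among them.

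The 95% intervals of the genotype contrasts give the precision of each change. They are not adjusted for the number of genes tested, so they do not mark the limit of what the test can call. For Slc5a2 in both sexes, Q against WT was -0.09 (95% interval -0.24 to 0.06) and R against WT -0.10 (95% interval -0.26 to 0.07). For Fbp1 the same contrasts were -0.01 (95% interval -0.15 to 0.13) and 0.01 (95% interval -0.14 to 0.17). For G6pc they were -0.05 (95% interval -0.39 to 0.30) and -0.14 (95% interval -0.51 to 0.23), a wider range. Slc38a3 gave 0.03 (95% interval -0.25 to 0.30) and 0.36 (95% interval 0.06 to 0.65). Pck1 gave 0.16 (95% interval -0.19 to 0.51) and 0.39 (95% interval 0.01 to 0.77). Although the intervals of these genes for R against WT excluded 0, neither passed after adjustment (edgeR adjusted p = 0.9999 for each).

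At an unadjusted p under 0.05 there were 5 values among the members in these contrasts, and 3 of them were of Slc38a3, the glutamine carrier. Male R kidneys had 89.3, 76.5, 80.9, 100.2 and 96.5 CPM, against 82.7, 40.3, 94.6, 62.8 and 67.5 CPM in male WT. Female R kidneys had 113, 96.4 and 109 CPM, against 93.6, 72.3, 72.2, 89.0 and 86.1 CPM in female WT, with no overlap, as with female R above female WT in 1.89% of tested genes. In both sexes together R over WT was 0.36 (SE 0.142, unadjusted p = 0.0183 by edgeR's test), which did not pass after adjustment (edgeR adjusted p = 0.9999). Male Q kidneys had 96.6, 77.5, 73.8, 69.1 and 79.9 CPM and female Q had 91.9, 50.4, 86.5, 102 and 46.1 CPM, overlapping WT in each sex. In females Q over R was -0.49 (SE 0.213, unadjusted p = 0.0279 by edgeR's test, adjusted p = 0.998), and without female Q 5 it was -0.36. In both sexes together Q over R was -0.33 (SE 0.142, unadjusted p = 0.0291 by edgeR's test, adjusted p = 0.986).

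Pck1 and Slc2a2 held the other 2 of these unadjusted values. For Pck1 in both sexes together R over WT was 0.39 (SE 0.182, unadjusted p = 0.0412 by edgeR's test, adjusted p = 0.9999), and leaving out 1 library at a time gave 0.30 to 0.47. Slc2a2 had 114, 139, 127, 76.5 and 160 CPM in male Q kidneys, against 144, 148, 161, 166 and 138 CPM in male WT. The groups overlapped, and the lowest value was that of male Q 4. The log2 fold change was -0.30 (SE 0.122, unadjusted p = 0.0200 by edgeR's test, adjusted p = 0.917), and without male Q 4 it was -0.17.

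**Figure D4:**
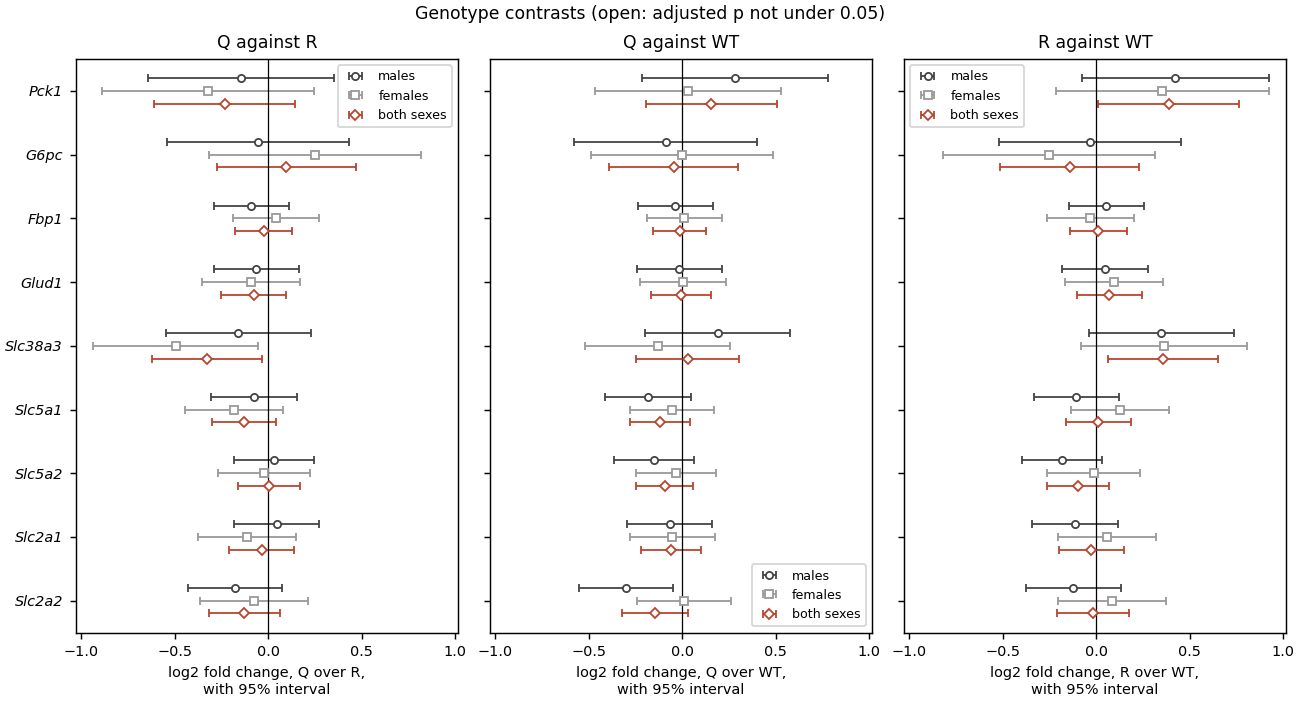
Log2 fold changes (horizontal axes) of Q over R, Q over WT and R over WT for each of the 9 genes, in males, in females and in both sexes together; bars are 95% intervals and open symbols have an edgeR adjusted p of 0.05 or more. All symbols are open; the intervals are widest for Pck1, G6pc and Slc38a3.

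How the 9 genes vary together within groups was described from the deviations of log2 CPM from the group mean over the 28 libraries. Of the 36 pairs 1 passed after adjustment, Pck1 with Glud1 (r = 0.82, rho = 0.78, permutation p = 1e-05 for each, the smallest that 100000 resamples can give, adjusted p = 0.00036 over 36 pairs). Leaving out the 2 libraries farthest from the median of Pck1 gave r = 0.84, and leaving out male Q 4 and female Q 5 gave r = 0.78. Male Q 4 and female WT 2, the libraries farthest below their group mean in Glud1, were also low in Pck1. No r was calculated without female WT 2 alone. Pck1 and Slc38a3 gave r = 0.46 (rho = 0.53, permutation p = 0.0345, adjusted p = 0.384) and did not pass, and r was 0.34 without the 2 libraries farthest from the median of Pck1. Without male Q 4 and female Q 5 this pair gave r = 0.66 (permutation adjusted p = 0.0241). Pck1 and Slc5a1 gave r = 0.47 (rho = 0.48, permutation p = 0.0199, adjusted p = 0.358), with r = 0.35 without the 2 libraries farthest from the median of Pck1 and r = 0.28 without male Q 4 and female Q 5. For Pck1 and G6pc, both gluconeogenic enzymes, r was -0.01 (rho = -0.06, permutation p = 0.952, adjusted p = 0.952). Slc5a1 and Slc5a2 gave r = -0.03 (rho = -0.19, permutation p = 0.873, adjusted p = 0.952).

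**Figure D5:**
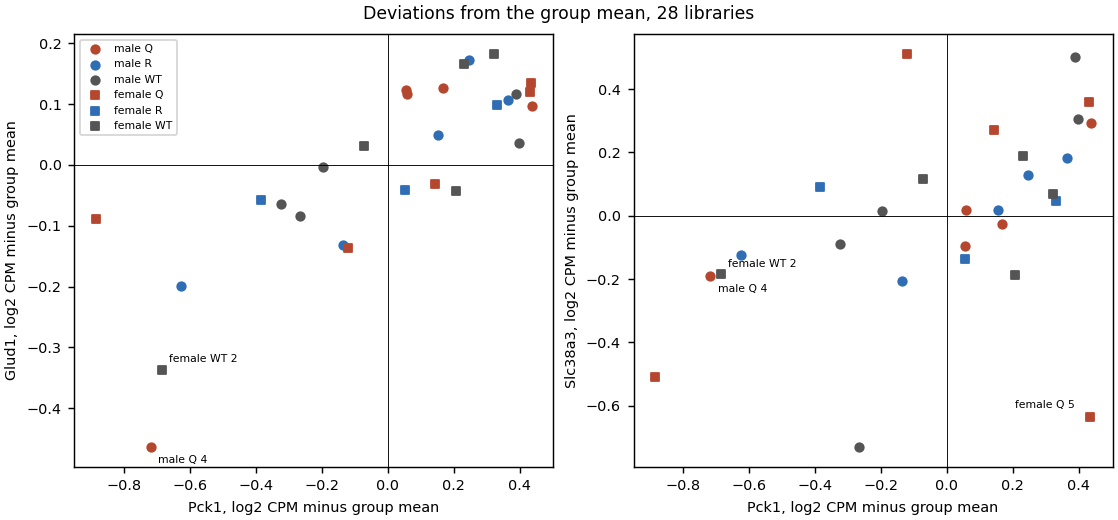
Deviation of Glud1 (left) and Slc38a3 (right) from the group mean against that of Pck1, both in log2 CPM, in 28 libraries; circles are male and squares female. Glud1 follows Pck1 (r = 0.82), while for Slc38a3 the library female Q 5 lies far from the others (r = 0.46).

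For each gene the 2 genes with the most similar pattern over the 28 libraries were found among 9305 genes with a mean of at least 10 CPM, as the smallest root mean square difference of centred log2 CPM. The likeness includes differences between the sexes and describes these libraries only. For Pck1 they were Tcaf1 (0.30) and Jak2 (0.30), against an SD of Pck1 itself of 0.46, and for G6pc Ackr3 (0.22) and Sesn2 (0.27), against 0.37. For Fbp1 they were Ctsl (0.09) and Chmp3 (0.10), against 0.13. Glud1 was nearest to Ivns1abp (0.10) and Rfk (0.11), against an SD of 0.20, and Slc38a3 to Dmgdh (0.24) and Ldlrad4 (0.24), against 0.35. No member was among the 2 nearest genes of another. This measure sets genes of unequal SD apart even where they move together, as with Pck1 and Glud1, so it does not show that members vary separately. For Slc5a1 the nearest genes were Tm9sf2 (0.15) and Pls3 (0.16), against 0.35, and for Slc5a2 Sh3gl1 (0.11) and Nkiras2 (0.12), against 0.15. Slc2a1 was nearest to Smad6 (0.15) and Enah (0.15), against 0.28, and Slc2a2 to Ddx19a (0.12) and Cyth1 (0.13), against 0.21.

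The 9 genes were set beside 5 wider lists of the same pathways, and members of a list were counted by the same test in the mean contrast of male over female, in which 18.9% of all tested genes were called higher and 21.3% lower. Of 14 other genes of gluconeogenesis, 6 were higher and 2 lower in males. Pcx, the pyruvate carboxylase that starts the pathway, averaged 718 ± 52.3 CPM in males and 419 ± 38.1 CPM in females (log2 fold change 0.78, SE 0.0544, edgeR adjusted p = 4.86e-13). Slc37a4, which carries glucose 6-phosphate to G6pc, was higher at 0.46 (edgeR adjusted p = 5.02e-05), and Tpi1, a shared enzyme of glycolysis and gluconeogenesis, at 0.38 (edgeR adjusted p = 2.2e-05). Fbp2, the muscle form of fructose bisphosphatase, was lower in males at 12.1 ± 2.50 CPM, against 27.8 ± 5.66 CPM in females, a log2 fold change of -1.21 (edgeR adjusted p = 2.83e-11). Pck1 and Pcx, the enzymes that open the pathway from pyruvate, differed between the sexes in opposite directions.

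Of 13 other genes of ammonia and glutamine handling, 3 were higher and 3 lower in males, with 40.2% of all tested genes called in either direction. Slc25a10, the mitochondrial dicarboxylate carrier, was higher at 0.43 (edgeR adjusted p = 2.32e-05) and Slc1a1, a glutamate carrier, at 0.18 (edgeR adjusted p = 0.00291). Slc7a7, a basolateral amino acid exchanger, was lower at -0.38 (edgeR adjusted p = 7.97e-05) and Glul, the glutamine synthetase, at -0.35 (edgeR adjusted p = 0.00186).

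Of 15 other genes of hexose transport 14 were tested, and 9 were lower and 1 higher in males. Over all tested genes 21.3% were called lower in males and 18.9% higher, here and for the list that follows. Slc5a10, a sodium and mannose or fructose carrier, averaged 158 ± 23.3 CPM in males and 236 ± 37.5 CPM in females (log2 fold change -0.59, edgeR adjusted p = 3.41e-07). Slc5a9 was lower at -0.38 (edgeR adjusted p = 9.69e-05) and the insulin-sensitive carrier Slc2a4 at -0.32 (edgeR adjusted p = 0.000216). The gene that was higher, Slc5a8 at 1.37 (edgeR adjusted p = 1.91e-12), encodes a monocarboxylate carrier of the same family. Of 18 genes of glycolysis and fructose use 17 were tested, and 10 were lower and 2 higher in males, with Pkm at -0.48, Hk1 at -0.45, Pfkp at -0.46 and Ldha at 0.66. Their edgeR adjusted p-values were 6.41e-07, 7.11e-07, 8.59e-07 and 1.82e-09.

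Of 17 regulators 3 were higher and 5 lower in males, with 18.9% of all tested genes called higher and 21.3% lower. The coactivator Ppargc1a was lower at -0.37 (edgeR adjusted p = 2.5e-06) and the transcription factor Cebpa at -0.43 (edgeR adjusted p = 6.19e-05). The transcription factor Hnf4a, which acts in tubule cells, was higher at 0.36 (edgeR adjusted p = 8.17e-05). The median log2 fold change was -0.14 over the 9 members, 0.12 over the other gluconeogenesis genes, 0.01 over ammonia and glutamine, -0.32 over hexose transport, -0.31 over glycolysis and -0.02 over the regulators, against -0.04 over all tested genes. In the genotype contrasts no gene of any of these lists was called by edgeR.

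Markers of other parts of the kidney also moved between the sexes. The counts below are from the mean contrast of male over female, in which 21.3% of all tested genes were called lower in males and 18.9% higher. Of 10 tested collecting duct markers 8 were lower in males and 0 higher, and of 8 markers of the thick limb and distal tubule 7 were lower and 0 higher. The summed level of the thick limb and distal markers ran from 3624 to 5822 CPM in males and from 5425 to 7598 CPM in females. The summed collecting duct level ran from 753 to 1117 CPM in males and from 914 to 1340 CPM in females. Proximal tubule markers went both ways, with 5 of 14 general ones higher and 4 lower, 3 and 5 of 9 in the early segment, and 4 and 3 of 9 in the late segment. The summed early segment level ran from 11275 to 13934 CPM in males and from 5956 to 8455 CPM in females. The summed late segment level ran from 3154 to 5507 CPM in males and from 1713 to 2411 CPM in females, and neither segment's sum overlapped between the sexes. A sum is weighted towards the most abundant markers and does not describe the list as a set. The early segment sum was higher in males, although 5 of its markers were called lower and 3 higher. Of 8 endothelial and stromal markers 4 were lower, of 10 blood markers 2, of 7 urothelial markers 1 and of 9 adipocyte markers 0, with none higher in these 4 lists. No marker was at 0 over all libraries, and the part of these cell types in the results was not tested.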

How the data were processed

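Whole kidneys were profiled by poly-A RNA sequencing in 28 libraries of 6 groups, given by the labels. The analysis started from the whole-number counts that the authors deposited, with no scaling. Per the file headers they were made with featureCounts, counting fragments over exons with no strand option named. The submitters' processing notes list Subread 2.0.1, SAMtools 1.6, Trim Galore 0.6.7, DESeq2 1.38.3 and build GRCm39; the aligner is not given in the sources used here. Of 56748 genes, 52073 had a symbol, and all 28 value columns belonged to a labelled sample.

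In R 4.3.3, edgeR 4.0.16 kept 17573 genes (filterByExpr on the 6 groups, 99.9% of counts), scaled libraries by TMM and fitted 1 mean per group to all libraries (22 residual degrees of freedom, square root of the common dispersion 0.176). The robust quasi-likelihood test was run on 9 genotype contrasts, 4 sex contrasts and 2 interactions, with Benjamini-Hochberg adjustment over all tested genes of each contrast and a threshold of 0.05. Standard errors are the absolute log2 fold change over the square root of F, and 95% intervals use t with 22 degrees of freedom. Log2 CPM used a prior count of 2. Ratios of counts were compared by an exact permutation test and correlations by 100000 permutations within groups (SciPy 1.17.1, NumPy 2.4.6). The procedures were tested on simulated data. Exon lengths came from GENCODE M21 on GRCm38 and were joined by gene identifier, since the counts are on another build; promoter sequences are from RefSeq on GRCm38.p6.

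All 9 members are named in every comparison, and in each of 5 wider lists at most 4 genes with the smallest p between the sexes; some genes of these lists are counted but not reported here by name. The members, lists and contrasts were chosen with earlier results of these data known. Alternatives were DESeq2 size factors, the DESeq2 1.42.0 Wald test, a replicate block, no low-count filter, the library code as a covariate, limma 3.58.1 voom with quality weights, leaving out libraries that stand apart or go against their label, and leaving out each of the 28 libraries in turn.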

Additional observations from a re-analysis of the deposited data

Results flagged for a closer look

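In 45 groups of 5 libraries, 1 for each gene and group, the gap between the lowest or highest value and the nearest other library was set against Dixon's critical value; chance alone marks about 1 group in 20. There were 3 such values, in 2 libraries, all lowest in their group. Glud1 was at 430 CPM in male Q 4, against 634 to 647 CPM in the other 4 male Q libraries. Slc5a1 was at 45.6 CPM in the same library, against 63.2 to 69.1 CPM in the others. Slc5a2 was at 515 CPM in male WT 3, against 604 to 633 CPM in the others. Male Q 4 was the lowest of its group in 6 of the 9 genes.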

How the results depend on the processing

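Of the counts of members called, those of the genotype contrasts and interactions stayed at 0 and that of the mean of male over female at 4 or 5 under every alternative. In that mean 6477 to 8731 genes were called over all tested genes, against 7071 as reported. Voom with quality weights called 4 members in WT and 4 in R, against 2 in each as reported. Its calls over all tested genes also rose in both, as given below. Leaving out 1 library gave 2 to 3 members in WT, 2 to 3 in R, 2 in Q and 4 in the mean. Over all tested genes it gave 2356 to 3875 calls in WT, 1608 to 3599 in R, 3446 to 4266 in Q and 6489 to 7638 in the mean. No value of a called member changed direction under any alternative, while 207 of 4860 values did so over all members and alternatives. Over all tested genes, male over female in WT gave 4623 calls with voom, against 2906. In R it gave 4171 calls without male Q 4 and female Q 5 and 4972 with voom, against 2474, and 1608 to 3599 when 1 library was left out, with 1608 without female R 1 and 1613 without female R 2. In Q against WT in males the DESeq2 Wald test gave 3 calls and leaving out 1 library 0 to 2, against 0, with 2 without male Q 5 and 1 without each of male R 1, male R 4, male R 5 and male WT 1. In Q against WT the Wald test gave 1 call in females and 1 in both sexes together, with 0 to 1 in both sexes when 1 library was left out (1 without male R 1). In Q against R in males the Wald test gave 1 call, no filter on low counts 1, voom 2 and leaving out 1 library 0 to 2 (2 without male Q 5, 1 without male R 4 and 1 without male WT 2). The number of related pairs of members was 2 without male Q 4 and female Q 5, against 1. The cause of these shifts was not tested.

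Voom called Pck1 in WT (-0.62), Glud1 in WT (-0.28) and R (-0.25), and Fbp1 in R (0.23) and in the mean (0.11), all for male over female by adjusted p under 0.05. In the replicate block, Q against WT in males had 1 call over all tested genes, against 0, and no member changed sides. What the replicate numbers stand for is not given by the labels. Deviations of libraries with the same number correlated at a median of 0.0057 over 65 pairs (-0.29 to 0.21). Those of libraries with other numbers correlated at a median of -0.0024 over 260 pairs (-0.32 to 0.39). Whether some libraries with the same number were handled together was not tested.

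Depth was not limiting for the 9 genes, whose lowest count was 683; the number of libraries, 3 in female R, limits the precision. Group means of 5 libraries leave 95% intervals of about ± 0.5 on the log2 scale for Pck1 within 1 sex, so smaller changes of that gene cannot be told from 0. Larger changes can also go uncalled after adjustment. Male over female for Pck1 was -0.58 in WT (edgeR adjusted p = 0.103) and -0.51 in R (edgeR adjusted p = 0.240).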
